A study of Mus musculus with 2 samples.

Results

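The genes described here encode 10 myokines and other secreted factors that are linked to PGC-1 activity, mitochondrial stress or exercise, Fndc5, Fgf21, Gdf15, Il6, Il15, Mstn, Bdnf, Angptl4, Metrnl and Ostn. They were taken by gene symbol, with no filter on their values, but with earlier results of these data known. Of the 10 genes, 8 were paired with a probe set in the annotation of the array, each with 1, among 19936 named nuclear genes. Fndc5, the precursor of irisin, and Gdf15, a stress hormone that acts on the brainstem, were not listed there, and their transcripts were not analysed here. Gene expression was measured in gastrocnemius muscle, on 1 control array and 1 PGC-1β(i)skm-/- array, each with RNA pooled from 3 mice.

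Male mice of both groups were on a C57BL/6 background, carried floxed PGC-1β alleles on both chromosomes (L2/L2, with LoxP sites around exon 5), and were treated from the age of 7 weeks with 5 daily doses of 1 mg tamoxifen. Muscle was collected at 8 weeks, 1 week after the last tamoxifen administration. Control mice were without Cre recombinase, HSA-Cre-ERT2(0/0), although the sample label of this array reads wild-type. PGC-1β(i)skm-/- mice carried HSA-Cre-ERT2(tg/0), a tamoxifen-dependent recombinase under the regulatory elements of human skeletal actin, which is active in myofibres, so that PGC-1β is intact in other cells of the muscle. The transgene was present in the mutant mice alone, and its own effect cannot be told apart from that of the deletion. Because there is no replicate array, no difference given here has an error or a test, and the precision of every value is limited by this number of arrays.

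Myokines are proteins that contracting or stressed muscle releases to act on muscle itself or on distant organs. PGC-1 coactivators, which dock on nuclear receptors and raise mitochondrial gene expression, are known to raise several of them, among them Fndc5. Mitochondrial stress acts by another route, the integrated stress response, in which the transcription factor ATF4 raises Fgf21 and Gdf15. Fatty acids act on Angptl4 and Fgf21 through the PPAR receptors.

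None of the 8 factors had a ratio of PGC-1β(i)skm-/- to control signal of 0.8 or less, a limit that 0.652% of all named nuclear genes passed, and none had a ratio of 1.2 or more, which 1.64% passed. Their ratios lay between 0.931 for Angptl4 and 1.14 for Mstn. The log2 difference, taken as mutant minus control, was above 0 for 5 factors and below 0 for 3, against 49.6% of all named genes above 0. The median log2 difference was 0.08 over the 8 factors and −0.0006 over all named genes. With 8 factors and shares of this size, a count of 0 is near the background. The range of the ratios of the factors fixes the counts at 0 for other limits as well. A ratio of 1/1.2 or less was passed by 1.69% of all named genes. Beyond 1.5-fold, 0.0401% passed in the direction of lower and 0.0201% in that of higher signal.

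The arrays carry no call of detection, so olfactory receptor genes, which are made in the nose and not in muscle, were used as a guide to the signal of silent genes. The 95th percentile of the mean log2 signal of 1035 olfactory receptor probe sets was 5.45, and a factor at or below it is called dim. Il6, Fgf21 and Bdnf were dim. Mstn, Ostn, Il15, Angptl4 and Metrnl were not, and Metrnl, at a mean log2 signal of 6.18, was 0.73 above the limit. Of these 5 factors, 3 had a log2 difference above 0 and 2 below 0, with a median of 0.05. The ratio was 0.8 or less for 0.799% and 1.2 or more for 1.55% of the named genes that were not dim. Probes differ in affinity, so that signals of different factors give no order of transcript abundance.

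**Figure D1:**
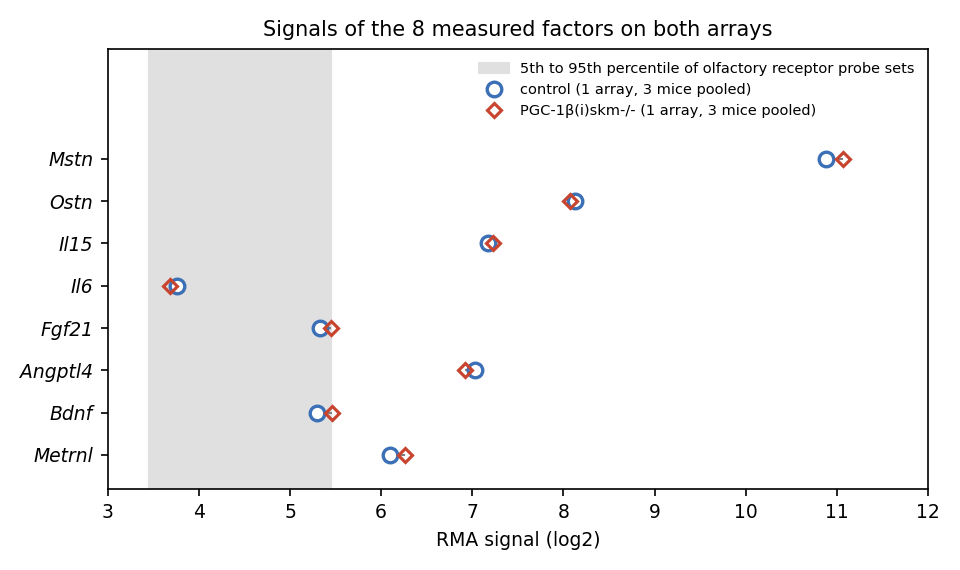
Log2 RMA signal (horizontal axis) of the 8 measured factors (vertical axis) on the control array (circles) and the PGC-1β(i)skm-/- array (diamonds), each 1 pool of 3 mice, with the 5th to 95th percentile of 1035 olfactory receptor probe sets shaded in grey. Il6, Fgf21 and Bdnf lie in or at the edge of the grey band, and the arrays differ by at most 0.19 for every factor.

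The promoters of 2 factors are shown, Mstn because it had the highest ratio and Fgf21 because it is the classical target of the mitochondrial stress pathway that could be measured here. Each run holds the 250 bases before the RefSeq start site of the GRCm38.p6 assembly, 5′ to 3′ on the strand of the gene, at chr1:53061390-53061639 (plus strand) for Mstn and chr7:45615491-45615740 (minus strand) for Fgf21. Capitals mark matches to the letters searched, which are given after the sequences.
Mstn: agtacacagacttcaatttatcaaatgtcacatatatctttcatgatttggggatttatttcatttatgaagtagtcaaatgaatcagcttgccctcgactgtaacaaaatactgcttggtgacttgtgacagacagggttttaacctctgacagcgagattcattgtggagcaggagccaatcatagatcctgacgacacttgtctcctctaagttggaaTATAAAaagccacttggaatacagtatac
Fgf21: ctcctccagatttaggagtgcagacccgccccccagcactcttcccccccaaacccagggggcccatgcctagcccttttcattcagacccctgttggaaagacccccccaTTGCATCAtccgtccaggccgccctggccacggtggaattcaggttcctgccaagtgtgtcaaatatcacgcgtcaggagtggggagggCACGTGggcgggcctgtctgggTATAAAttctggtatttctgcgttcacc

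In the Mstn promoter the capitals are TATAAA, the letters of a TATA box, which 12.4% of all 32851 RefSeq promoter windows hold. In every window the search covered the same 250 bases before the start site, and all shares given here refer to these bases. The Fgf21 promoter holds TATAAA as well, together with TTGCATCA, the reverse complement of TGATGNAA, an element bound by ATF4 with C/EBP proteins and present in 3.45% of windows, and CACGTG, an E-box, present in 6.02%. The start site lies 132 bases beyond the last letter of TTGCATCA. AAGGTCA, the letters bound by estrogen-related receptors, CCGGAAG, bound by GABPA, and TGACGTCA, bound by CREB, were in none of the 14 windows of the 7 factors with an entry (Mstn, Bdnf, Fndc5, Il6, Fgf21, Gdf15 and Metrnl), and were in 4.08%, 6.91% and 1.55% of all windows. Both strands were searched, TGACGTCA and CACGTG read alike on both, and none of the matches overlap. Of the other factors, Gdf15 held CACGTG in 1 of its windows. CAGCTG, the E-box letters preferred by MyoD, was in 1 window each of Bdnf and Metrnl and in 13.0% of all windows. CAGCTG and TATAAA were chosen after the values were seen. A match is a description of letters and not a site, and no promoter data were collected in this experiment.

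The targeted gene, Ppargc1b, had log2 signals of 7.87 on the control array and 7.06 on the mutant array, a ratio of 0.569, with a probe set that is not limited to the deleted exon. Ppargc1a, encoding PGC-1α, which raises several myokines, had signals of 10.18 and 10.29. Of their partner factors, Esrrb, Esrra, Gabpa and Nrf1 had log2 differences of −0.22, −0.16, −0.11 and −0.06, and Esrrg had 0.06. The mean log2 signal of Esrrb, 5.77, was above the dim limit but below the median of all probe sets (6.01). The 11 myofibre markers had control signals between 12.87 for Myh1 and 13.88 for Acta1 and log2 differences between −0.16 for Myh1 and 0.04 for Ckm, with a median of 0.01. Mb, encoding myoglobin, had −0.06 and Tnni2 0.03. Markers of connective tissue cells and of macrophages were above 0 on the mutant array for 10 of 10 and 9 of 9 genes. Of all named genes, 49.6% were above 0. The medians of these markers were 0.20 and 0.27, and the log2 ratio of their summed linear signals was 0.19 and 0.26. Of the connective tissue markers, 3 had a ratio of 1.2 or more, against 1.64% of all named genes. These were Fmod (1.25), Tnmd (1.21) and Thbs4 (1.21), all known from tendon, followed by Lum (1.18). No defining marker of these cells was dim. In whole muscle, a change in the number of cells of a type cannot be told apart from a change of RNA per cell.

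Mstn encodes myostatin, the TGF-β family member that myofibres release to restrain their own growth. The log2 signal of Mstn was 10.88 on the control array and 11.07 on the PGC-1β(i)skm-/- array. The mutant array was 13.8% above the control array, with a log2 difference of 0.19, at rank 1059 from the highest of 19936 named genes. To set a difference beside genes of like signal, the genes were divided by mean signal into 4 classes of 4984, and 6.88% of the class of highest signal, to which Mstn belongs, had a difference of at least this size in either direction. Macrophage and connective tissue markers had larger medians than this difference, and their part in the signal of Mstn was not tested. The markers of myofibres, the cells that make myostatin, had a median of 0.01 at mean log2 signals between 12.79 and 13.89. Whether the share of myofibres differed between the arrays was not tested.

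Myostatin is made as a precursor that furin-type convertases cut and that tolloid proteases release from its propeptide. Furin had log2 signals of 8.64 and 8.67, Pcsk5 of 6.73 and 6.78 and Pcsk6 of 8.57 and 8.71. Of the tolloid genes, Bmp1 had 8.51 and 8.55, Tll2 had 5.65 and 5.78, and Tll1, which was dim, had 5.27 and 5.18. The myostatin inhibitor follistatin, encoded by Fst, had signals of 7.36 in control and 7.45 in mutant muscle. Wfikkn2, encoding another myostatin-binding protein, had 7.59 and 7.39, the lowest log2 difference of its group (−0.20), and Wfikkn1, its relative, had 6.53 and 6.65. Decorin, which binds myostatin in the matrix and is also among the connective tissue markers, had 12.48 and 12.63 (Dcn).

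Of 17 genes for convertases, binding proteins and inhibitors of the factors, none passed 0.8 or 1.2, with 7 below 0, 10 above 0 and a median of 0.03. Sorl1, encoding a sorting receptor, had a log2 difference of −0.15. Acvr2b, the main myostatin receptor, had log2 signals of 7.24 and 7.27, and its relative Acvr2a had 8.60 and 8.53. The type I receptors Acvr1b and Tgfbr1 had log2 signals of 9.72 and 9.80, and of 8.92 on both arrays. Of 11 genes of SMAD signalling and the myostatin response, 2 had a ratio of 1.2 or more, Id2 (log2 difference 0.31) and Id3 (0.27), and none had 0.8 or less, with a median log2 difference of 0.07. Id2 and Id3 encode inhibitors of basic helix-loop-helix factors and are known best as targets of BMP signalling. Among the targets of SMAD2 and SMAD3, the feedback genes Smad7 and Skil had ratios of 1.14 and 1.12. Fbxo32, the atrophy ubiquitin ligase atrogin-1, had signals of 11.39 on both arrays, and Trim63, encoding MuRF1, had 11.11 and 11.26.

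Ostn encodes osteocrin, or musclin, a peptide of muscle and bone that binds the natriuretic peptide clearance receptor and is known to rise with exercise. Ostn had a log2 signal of 8.13 on the control array and 8.07 on the PGC-1β(i)skm-/- array. The mutant array was below the control array, with a log2 difference of −0.06. A difference of this size was reached by 44.7% of the genes of the same signal class. Npr3, encoding the clearance receptor, had signals of 7.64 and 7.61.

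Il15 encodes interleukin-15, a cytokine that muscle releases together with the alpha chain of its receptor. On the control array Il15 had a log2 signal of 7.17, and on the PGC-1β(i)skm-/- array 7.23. The mutant array was 3.87% above the control array. A difference of this size was reached by 61.1% of the genes of its class. Il15ra, the alpha chain, had signals of 8.19 and 8.09, with a log2 difference of −0.11 and a sign opposite to that of its ligand. Il2rb, the signalling chain found on lymphocytes, was dim, with 4.84 and 4.86, and of 5 lymphocyte markers 3 were dim, Cd4, Cd3g (log2 difference −0.24) and Nkg7 (0.18). The other lymphocyte markers, Cd3e and Cd8a, had 0.16 and −0.04.

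Il6 encodes interleukin-6, the cytokine that contracting muscle releases into the circulation. The signal of Il6 was 3.76 on the control array and 3.68 on the PGC-1β(i)skm-/- array (log2), both within the range of silent genes. Of the olfactory receptor probe sets, 78.8% had a higher mean signal than Il6, so that its log2 difference of −0.08 compares signals at background. Its receptor chains Il6ra and Il6st, the latter encoding gp130, were measured well above the dim limit. Il6ra had signals of 7.92 and 7.90 and Il6st of 10.87 and 10.83. Of 10 genes of the response to such cytokines, 1 had a ratio of 1.2 or more, against 1.64% of all named genes. This was Bcl3, a nuclear partner of NF-κB, at 1.27, and none of the 10 had 0.8 or less. The next largest differences of this group had opposite signs, with Socs3, the feedback inhibitor of this pathway, at log2 signals of 6.98 and 7.12 and Cebpd, a transcription factor, at 7.65 and 7.51. Fos followed with a log2 difference of 0.07, and the median of the group was 0.02. Macrophages also make Il6, and their markers were above 0 on the mutant array. The signal of Il6 was at background on both arrays, and the part of macrophages in it was not tested.

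Fgf21 encodes a hormone that muscle releases under mitochondrial stress and that acts on cells with both FGFR1 and β-Klotho. Fgf21 had a log2 signal of 5.33 on the control array and 5.44 on the PGC-1β(i)skm-/- array, and 5.89% of the olfactory receptor probe sets had a higher mean. Both values lay at the edge of the silent range, whose 95th percentile was 5.44 on the control array and 5.49 on the mutant array. The log2 difference was 0.11, a size reached by 35.3% of the genes of the same signal class. Klb, encoding β-Klotho, was dim, with log2 signals of 4.64 and 4.49, and Fgfr1 had 9.75 on both.

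Of 20 genes of the integrated stress response, the pathway of the ATF4 letters in the Fgf21 promoter, 15 had a log2 difference above 0 and 5 below 0. Their median was 0.05, and 49.6% of all named genes were above 0. Ddit3, encoding the stress factor CHOP, had a ratio of 1.23 and Aldh18a1, an enzyme of proline synthesis in mitochondria, of 1.21. Ddit4, an inhibitor of mTORC1 signalling, had a ratio of 0.796. Of all named genes, 1.64% had a ratio of 1.2 or more and 0.652% of 0.8 or less. The other 17 stress response genes had ratios between these limits. Among them were Psat1, of serine synthesis, at 1.14, Asns, of asparagine synthesis, at 1.08 and Trib3 at 0.963. Atf4 had log2 signals of 8.31 on both arrays, but ATF4 is regulated mainly at translation, which arrays do not measure. The receptor of Gdf15, Gfral, was dim with 4.32 and 4.34, and its co-receptor Ret had 6.88 and 6.92.

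Angptl4 encodes an inhibitor of lipoprotein lipase that fatty acids raise through PPARδ in muscle. The log2 signal of Angptl4 was 7.03 on the control array and 6.92 on the PGC-1β(i)skm-/- array. The mutant array was below the control array, with a log2 difference of −0.10 and the lowest ratio of the 8 factors, 0.931. A difference of this size was reached by 35.9% of the genes of its class. Lpl, the enzyme that it inhibits, had signals of 11.42 and 11.37, Gpihbp1, its endothelial anchor, 8.57 on both, and Lmf1, which matures it, 8.71 and 8.56.

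A group of 15 genes held the receptor genes Ppard and Ppara and genes that share regulation by PPARs with Angptl4 and Fgf21. Of these 15 genes, 11 were below 0 and 4 above 0, against 49.6% of all named genes above 0. Their median log2 difference was −0.08, and none passed 0.8 or 1.2. The largest differences were those of Acadm (−0.20), an enzyme of fatty acid oxidation, and Plin5 (−0.19), a lipid droplet protein, followed by Hadha (−0.13). Acadm and Hadha belong to fatty acid oxidation and are targets of PGC-1 as well. Pdk4, the PPAR target that blocks pyruvate dehydrogenase, had log2 signals of 13.20 on both arrays. Ppard and Ppara had log2 differences of −0.08 and −0.11. Adipocytes also make Angptl4, and the log2 differences of 6 adipocyte markers lay between −0.07 for Adipoq and 0.23 for Retn, with Lep at 0.21, Plin1 at 0.08, Fabp4 at 0.07 and a median of 0.07. Their part in the signal of Angptl4 was not tested.

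Bdnf encodes the neurotrophin that neurons release and that muscle makes on contraction without releasing much of it. Bdnf had a log2 signal of 5.30 on the control array and 5.46 on the PGC-1β(i)skm-/- array. The mutant array was 11.8% above the control array, with a log2 difference of 0.16, but the mean signal was dim, 0.07 below the limit. Differences of this size were found in 19.1% of the genes of like signal. Ntrk2, its receptor, had signals of 5.71 and 5.96, with a ratio of 1.19, the highest of the 18 receptor genes. The mean signal of Ntrk2, 5.83, was above the dim limit but below the median of all probe sets (6.01). Ngfr had a log2 difference of 0.01. Among 13 genes of the response to activity, Nr4a3, an orphan receptor induced by exercise, had a ratio of 0.761 and none had 1.2 or more, with Nr4a2 at 1.16, Nr4a1 at 1.11 and Egr1 at 1.11. The median log2 difference of this group was −0.01.

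Metrnl encodes meteorin-like, a factor of muscle, adipose tissue, skin and activated macrophages that rises with exercise. In control muscle Metrnl had a log2 signal of 6.10, and on the PGC-1β(i)skm-/- array 6.26. The mutant array was 11.6% above the control array, with a log2 difference of 0.16, at rank 1616 from the highest. In its class of signal, 19.8% of genes had a difference of this size or more. Of 9 macrophage markers, 5 had a ratio of 1.2 or more, against 1.64% of all named genes. These were C1qa (log2 difference 0.37), C1qb (0.36), Mrc1 (0.31), C1qc (0.27) and Csf1r (0.27). The part of macrophages in the signal of Metrnl was not tested. Kit, its reported receptor, is also a mast cell marker and had log2 signals of 5.81 and 5.87. Metrn, its relative in the nervous system, had 7.74 and 7.62.

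**Figure D2:**
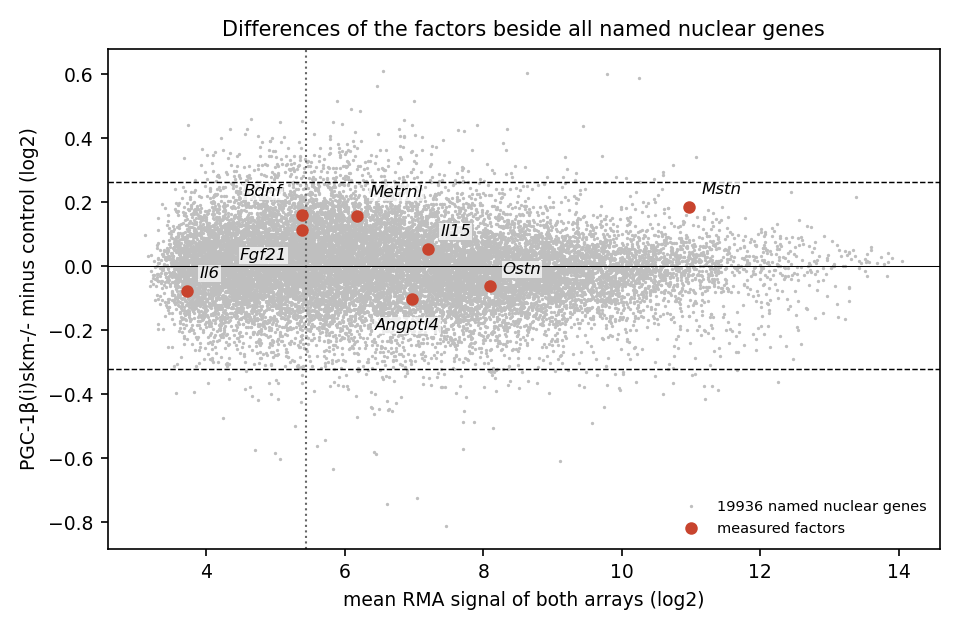
Vertical axis, log2 difference of the PGC-1β(i)skm-/- from the control array, against the mean log2 signal of both arrays (horizontal axis) for 19936 named nuclear genes (grey) and the 8 measured factors (red), with dashed lines at ratios of 0.8 and 1.2 and a dotted line at the dim limit of 5.45. All 8 factors lie between the dashed lines, and Mstn, at 0.19, lies farthest from 0.

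Of all 18 measured receptors and co-receptors of the 10 factors, 8 were below 0 and 10 above 0, with a median log2 difference of 0.01 and no ratio past 0.8 or 1.2. Besides Ntrk2, the largest differences were those of Klb (−0.15), Il15ra (−0.11) and Acvr1b (0.08). Itgav and Itgb5, integrins reported as receptors of irisin, had log2 differences of −0.01 and 0.05. The receptors were measured in whole muscle, while several factors act on distant organs.

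Among 30 other factors that muscle is known to release, no ratio passed 0.8 or 1.2, with 15 above 0, 15 below 0 and a median log2 difference of −0.01. Sparc, a collagen-binding matrix protein, had log2 signals of 12.33 in control and 12.56 in mutant muscle, and Fstl1, a glycoprotein of muscle and fibroblasts, 9.11 and 9.32. Both are also made by connective tissue cells, whose markers were above 0 on the mutant array, and the part of these cells was not tested. Vegfb, a growth factor known to be expressed together with mitochondrial genes, had signals of 10.20 and 9.97, a ratio of 0.854 and the lowest of this group. Gdf11, the closest relative of myostatin, had 8.17 and 7.95, a ratio of 0.860, with a sign opposite to that of Mstn.

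**Figure D3:**
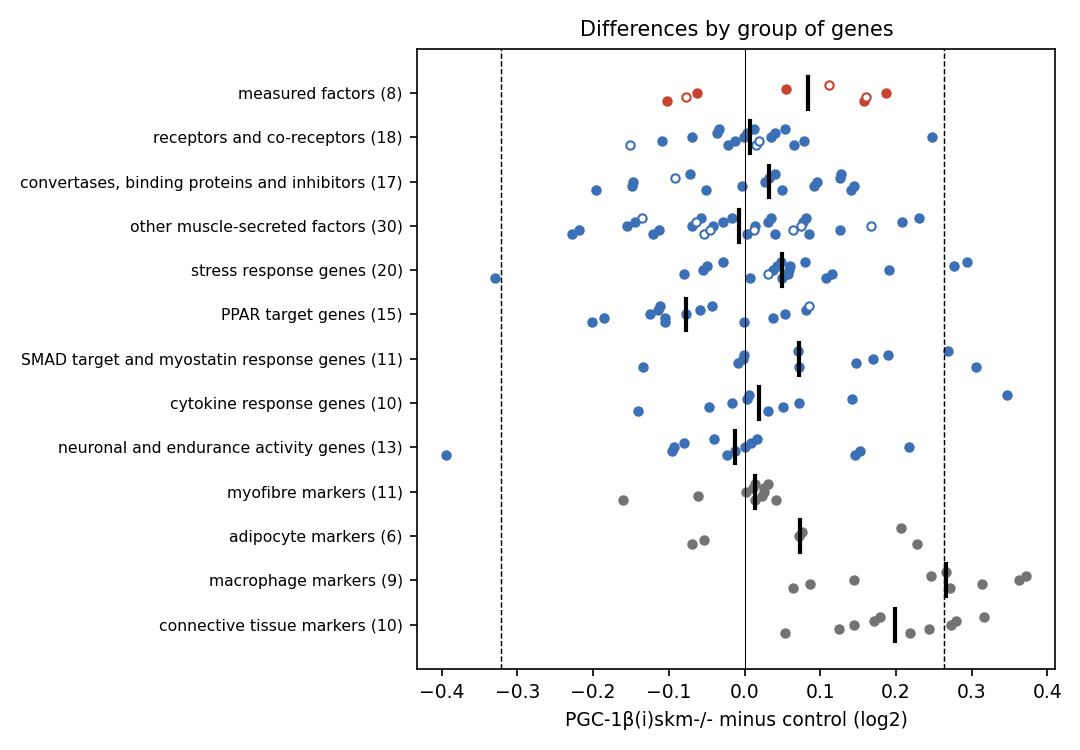
Horizontal axis, log2 difference of the PGC-1β(i)skm-/- from the control array, of each gene in the groups named on the vertical axis (with the number of genes). Open circles are dim genes, black bars group medians and dashed lines ratios of 0.8 and 1.2. The PGC-1 family with its partner factors and the endothelial, Schwann cell, mast cell, lymphocyte and satellite cell markers are not shown. Medians lie at 0.08 for the measured factors (red), −0.08 for PPAR targets, 0.20 for connective tissue markers and 0.27 for macrophage markers. The group of PPAR targets includes the receptor genes Ppard and Ppara.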

How the data were processed

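Each deposited value is the log2 signal of a probe set. The authors used Affymetrix Mouse Gene 1.0 ST arrays, read them with GeneChip Command Console 3.2, and ran RMA in Expression Console 1.1 to obtain the log2 values. RMA corrects the background, applies quantile normalization and fits a median polish over probes, which compresses differences of dim probe sets and removes any shift shared by all genes. For the array's genome build, the sources used here name none.

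Of 35556 probe sets, 21789 had 1 gene symbol in the platform annotation, 1621 with several were left out, and 12146 had no entry. Symbols were updated by Entrez ID through RefSeq genes of GRCm38.p6 for 21698 probe sets. Where a gene had more than 1 probe set, that of highest mean signal was taken. The ratio is 2 raised to the log2 difference, with thresholds of 0.8 and 1.2 from the methods of the study. No test was possible with 1 array per genotype.

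The factors and gene lists were chosen with earlier results of these data known. Named are all factors, their receptors and partners, and in each list, other than the genes of other organs, the genes past a threshold or, with fewer than 4 of these, the 4 of largest difference. Acta1, Adipoq, Asns, Atf4, Cd4, Fbxo32, Metrn, Pdk4, Trib3 and Trim63 were named for their role after their values were seen. Nrf1 and Esrrg were named after their values were seen, to complete the partner factors. Promoter windows were those of RefSeq. Protein sequences were not used here. The calculation was tested on simulated data. Python 3.11.15, pandas 2.3.3, numpy 2.4.6 and statsmodels 0.14.6 were used.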

Additional observations from a re-analysis of the deposited data

How the results depend on the processing

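Each of the 8 factors has 1 probe set, so averaging the probe sets of a gene or counting any of them could not change its value. Keeping probe sets of several genes changed no value of a factor either. The median difference over all named genes was −0.0006, so that subtracting it changed little. With a loess curve (span 0.3) of difference against signal subtracted, each factor kept the sign of its difference and stayed between ratios of 0.8 and 1.2. With the loess curve subtracted, the log2 difference was 0.20 for Mstn, 0.14 for Bdnf and Metrnl, 0.09 for Fgf21 and −0.04 for Ostn. The ratios of the factors, between 0.931 and 1.14, fix the counts at a ratio of 1/1.2 or less and at 1.5-fold at 0. Filters on signal left 5 factors above the dim limit or at a log2 signal of 6 or more, and 3 at 7 or more. Il6, Fgf21 and Bdnf were dim under every limit tried, among them the median of all probe sets (6.01) and the 95th percentile of 24 genes of other organs (6.17), and Metrnl joined them at the 99th percentile of olfactory receptors (6.34). No paired analysis was possible because each genotype has 1 array, and for the same reason no array could be left out.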

Other observations

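Markers of other cells of the muscle were measured as a description of the tissue in which the factors act. Of 6 mast cell markers, 2 had a ratio of 1.2 or more, Cpa3 (1.53) and Mcpt4 (1.33), against 1.64% of all named genes. Tpsb2 had a ratio of 1.19 and Kit of 1.05, while Cma1 (0.979) and Fcer1a (1.06) were dim. The mean log2 signal of Mcpt4, 5.79, was below the median of all probe sets (6.01). Of 4 satellite cell markers, Myf5, a myogenic factor, had log2 signals of 5.80 on the control array and 6.06 on the mutant array, Chrdl2 6.41 and 6.58, Cdh15 8.09 and 8.16, and Pax7 6.84 and 6.81. Of 6 endothelial markers, 4 were above 0 and 2 below 0, with a median log2 difference of 0.07, and Cdh5, the cadherin of endothelial junctions, at 0.16, Tek at 0.14, Emcn at −0.13 and Tie1 at −0.11. Of 3 measured Schwann cell markers, Mbp, the myelin basic protein, had a ratio of 0.791, and Pmp22 and Sox10 had 0.944 and 0.986.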
